A study of Mus musculus with 24 samples.

Results

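Nuclear receptors are a family of transcription regulators, most of which bind DNA. Many are switched by small fat-soluble ligands such as fatty acids, oxysterols, bile acids, retinoids, steroids, thyroid hormone and xenobiotics. In liver they set the rate of fatty acid oxidation, lipogenesis, bile acid synthesis and detoxification, and many of them bind DNA as a heterodimer with a retinoid X receptor. A set of 36 receptor genes was named for this account by symbol. A gene was taken where a probe set of the array carried that gene symbol and no other, and where a gene had several such probe sets the one with the highest mean over the 23 arrays used was kept. This gave 35 of the 36 genes, out of 22180 genes with a probe set of 1 symbol. Nr1h2, the gene of LXRβ, had none, and Nr3c2 alone had 2 probe sets.

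Male C57BL/6J mice were fed a control diet, a high fat diet enriched in eicosapentaenoic and docosahexaenoic acid (HFD-EPA/DHA) or a high fat diet with corn oil in place of those oils (HFD-corn oil), and liver RNA of 4 mice per diet was put on arrays of the GeneChip Mouse Gene 2.0 ST type after 8 or after 12 weeks, 1 mouse per array and 24 arrays in all. Both HFDs also held added cholesterol and more sugar and protein by weight than the control diet, so a difference of either HFD from control is one between whole diets. The mice of the 8-week study were 9 weeks old at the start and those of the 12-week study, a separate experiment, were 10 weeks old, so time on diet cannot be told apart from study and age. The 4 mice of a group were picked from a larger group on body weight and plasma lipids, and their cages are not given. Food was withdrawn early in the morning and the mice were killed later in the morning over consecutive days. On each day the mice were taken at random and in alternation from some, not all, of the diet groups. The day and hour of each mouse are not given, so diet cannot be fully told apart from them.

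The array of HFD-corn oil replicate 3 at 8 weeks did not enter the tests, a choice taken over from the methods of the study. Its median correlation with the other arrays was 0.940, whereas that of the remaining 23 lay between 0.983 and 0.988. The 8 hepatocyte marker genes measured had a mean signal of 12.30 to 12.69 on every array, no gene of any of the cell type marker lists passed the test in any comparison of diets or times, and all 5 neutrophil markers lay below the array median. Signals are given as log2 values, and a call is an adjusted p (limma, Benjamini-Hochberg over all 41345 probe sets) under 0.05. Whether groups overlap is given only as a description of the values, as the share of all probe sets without overlap was not counted. RNA was from whole liver, so fewer cells of a type and less RNA per cell cannot be told apart.

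The promoter sequences below belong to the receptors on which the results turn, namely those called between diets and those whose signal rose with a score of the liver clock. Each is the 250 bases before the RefSeq start site (mouse build GRCm38.p6), 5′ to 3′ on the strand of the gene. Capitals mark matches, on both strands, to the E-box CACGTG bound by clock factors, the D-box TTANGTAA bound by Dbp and its relatives, and the nuclear receptor half-site AGGTCA, whose complement reads TGACCT.
Nr1i3 (chr1:171213720-171213969, + strand): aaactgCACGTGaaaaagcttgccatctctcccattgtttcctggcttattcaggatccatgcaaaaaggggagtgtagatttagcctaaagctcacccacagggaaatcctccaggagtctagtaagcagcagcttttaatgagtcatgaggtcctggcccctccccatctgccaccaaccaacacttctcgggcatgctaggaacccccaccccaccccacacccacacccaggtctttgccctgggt
Ppara (chr15:85735526-85735775, + strand): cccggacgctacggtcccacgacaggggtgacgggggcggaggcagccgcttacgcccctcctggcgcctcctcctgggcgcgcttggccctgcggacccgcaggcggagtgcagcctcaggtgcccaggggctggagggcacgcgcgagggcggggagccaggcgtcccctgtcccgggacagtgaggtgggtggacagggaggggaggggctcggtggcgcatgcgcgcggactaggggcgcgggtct
Nr1h4 (chr10:89506659-89506908, - strand): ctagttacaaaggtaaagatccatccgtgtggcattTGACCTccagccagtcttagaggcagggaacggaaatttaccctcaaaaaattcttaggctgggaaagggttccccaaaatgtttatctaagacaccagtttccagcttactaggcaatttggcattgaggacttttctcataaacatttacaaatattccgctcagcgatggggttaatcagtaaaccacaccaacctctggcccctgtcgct
Ppard (chr17:28232504-28232753, + strand): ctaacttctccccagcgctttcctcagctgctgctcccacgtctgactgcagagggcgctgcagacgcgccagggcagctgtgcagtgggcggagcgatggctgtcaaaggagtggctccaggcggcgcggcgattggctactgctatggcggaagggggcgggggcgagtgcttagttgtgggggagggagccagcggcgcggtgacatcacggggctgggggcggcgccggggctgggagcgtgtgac
Nr2c1 (chr10:94147681-94147930, + strand): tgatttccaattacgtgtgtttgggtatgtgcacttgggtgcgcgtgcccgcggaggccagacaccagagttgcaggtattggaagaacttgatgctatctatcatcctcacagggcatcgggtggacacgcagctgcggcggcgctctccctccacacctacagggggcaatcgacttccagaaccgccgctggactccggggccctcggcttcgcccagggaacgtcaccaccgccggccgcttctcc
The E-box of Nr1i3 began 244 bases before the start and the half-site of Nr1h4 214 bases before it. None of the 3 motifs was found in these windows of Ppara, Ppard or Nr2c1, and the D-box in none of the 5. Among 32851 mouse promoters of this length, 6.02% held the E-box, 2.06% the D-box and 14% the half-site. Of the 51 promoters listed for 33 of the receptor genes, 7.84% held the E-box, 0% the D-box and 13.7% the half-site. The E-box was also found for Nr0b2, Rara and Thrb. A match is a description of the letters and not of binding. Esr1, whose signal fell with the clock, has 2 start sites in RefSeq and is not printed.

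Most of the receptor genes were well measured in these livers. The mean signal lay above the median of all probe sets, 7.16, for 31 of 35 genes, and 27 genes exceeded the median of the array on each of the 23 arrays. The 4 genes below it were Vdr at 7.10, Esrrb at 7.01, Nr4a2 at 7.13 and Nr4a3 at 6.98. Rarg, Hnf4g and Nr4a1 exceeded the median of the array on 22 arrays and Esrrg on 19. The spread between mice differed widely by gene. Nr1h3 stayed between 10.32 and 10.69 over the 23 arrays, whereas Nr4a1 ran from 7.16 to 9.79 and Nr0b2 from 9.24 to 11.56.

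**Figure D1:**
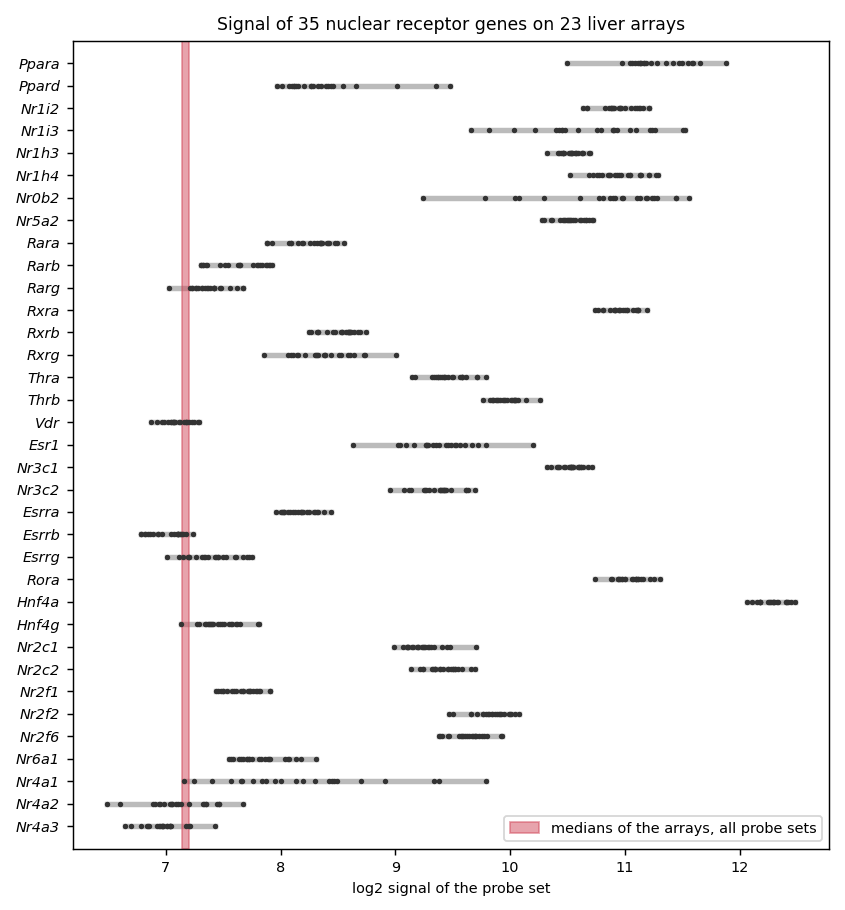
Signal of the 35 receptor genes by role (rows) on 23 arrays (points), in log2 units, with the range of each gene as a bar and the range of the array medians, 7.14 to 7.21, as a shaded band. Levels of different genes come from different probes and are to be read only against the band. Vdr, Esrrb, Nr4a2 and Nr4a3 have means below the median of all probe sets.

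The comparisons of each HFD with control asked which receptors differ in transcript level with high fat feeding, and those between the HFDs asked about the fat itself. At 12 weeks, 2 of the 35 receptors (5.71%) were called for HFD-EPA/DHA vs. control, against 0.617% of all probe sets. The constitutive androstane receptor Nr1i3, a sensor of drugs and other foreign compounds, rose 2.13-fold, and Ppard, the fatty acid sensor PPARδ, fell. With both HFDs and both times pooled against control, Nr1i3 rose and Nr2c1 (TR2, an orphan testicular receptor) fell, again 2 of 35 (5.71%), against 2.74% of all probe sets. No receptor was called in the other 12 comparisons, which include every one between the 2 HFDs. The comparisons with control share the control mice of their time and are not independent of each other.

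**Figure D2:**
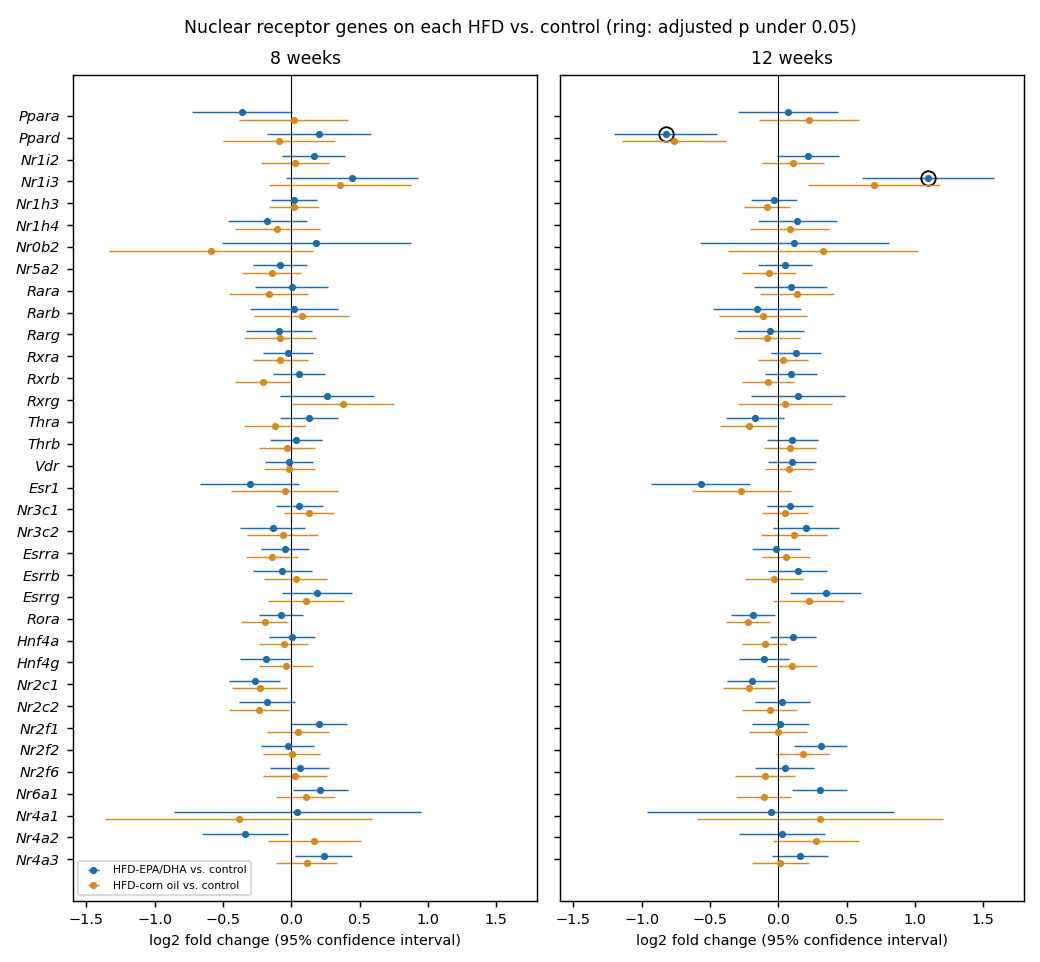
Log2 fold change (horizontal axis) of each receptor gene (rows) on HFD-EPA/DHA and HFD-corn oil vs. control at 8 weeks (left) and 12 weeks (right), with 95% confidence intervals from limma. Rings mark an adjusted p under 0.05, which only Nr1i3 and Ppard on HFD-EPA/DHA at 12 weeks have.

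Among the sensors of fatty acids and xenobiotics, Nr1i3 had signals of 10.59, 9.66, 9.81 and 10.03 in the 4 control mice at 12 weeks. In the HFD-EPA/DHA mice they were 11.24, 11.10, 10.91 and 11.22, so that the lowest of these lay above the highest control. The difference was 1.09 ± 0.23 (log2, SE, adjusted p = 0.0231, limma). The HFD-corn oil mice at 12 weeks, at 10.45, 11.04, 10.93 and 10.45, overlapped with control, and their difference from control, 0.70 ± 0.23, did not pass (adjusted p = 0.346). The 2 HFDs were 0.40 ± 0.23 apart at 12 weeks, with HFD-EPA/DHA higher, and their groups overlapped. At 8 weeks the control mice had 10.43, 10.75, 10.90 and 10.22, the HFD-EPA/DHA mice 10.90, 10.40, 11.51 and 11.26, and the HFD-corn oil mice 10.48, 11.53 and 10.79. These 3 groups overlapped, with differences from control of 0.44 ± 0.23 for HFD-EPA/DHA and 0.36 ± 0.25 for HFD-corn oil, neither of them called. Over both HFDs and both times the difference was 0.65 ± 0.15 (adjusted p = 0.0106, limma). The control mice at 12 weeks had the lowest group mean of Nr1i3, 10.02 ± 0.41 (SD, n = 4), against 10.57 ± 0.31 in control at 8 weeks (difference -0.55 ± 0.23, adjusted p = 0.677, limma).

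Ppard, which is found in many tissues and turns on genes of fatty acid use, had signals of 8.54, 9.35, 9.48 and 8.66 in control mice at 12 weeks. All 4 HFD-EPA/DHA mice, at 8.11, 8.20, 8.28 and 8.13, were below the lowest of these, and so were the HFD-corn oil mice at 8.10, 8.02, 8.45 and 8.41. The difference was -0.83 ± 0.18 for HFD-EPA/DHA (adjusted p = 0.0315, limma) and -0.76 ± 0.18 for HFD-corn oil, where it did not pass (adjusted p = 0.108, limma). Control at 8 weeks, at 8.12, 8.40, 8.44 and 8.07, was close to the HFD groups of both times, and the high values were those of 2 control mice at 12 weeks and of 1 HFD-EPA/DHA mouse at 8 weeks, at 9.01. The control mice of 12 weeks did not overlap with those of 8 weeks (difference 0.75 ± 0.18, adjusted p = 0.226, limma). The change of the HFD-EPA/DHA effect between the times was -1.03 ± 0.26, which had an unadjusted p of 0.000595 and an adjusted p of 0.983 (limma, interaction term). The markers of Kupffer cells and macrophages also had their highest group mean, 9.72, in control at 12 weeks, though none was called. All 8 were higher in control at 12 than at 8 weeks (median 0.31), and at 12 weeks 7 of 8 were lower than control for HFD-EPA/DHA (median -0.35) and 8 of 8 for HFD-corn oil (-0.27). The mean of this list was 9.41 to 10.0 in control, 9.29 to 9.61 in HFD-EPA/DHA and 9.28 to 9.55 in HFD-corn oil mice at 12 weeks. At 8 weeks 7 of 8 were above control on either HFD (median 0.08 for HFD-EPA/DHA, 0.21 for HFD-corn oil). Ppard had its lowest group mean, 8.17, on HFD-corn oil at that time. Of 7 markers of sinusoidal endothelial cells, 6 were higher in control at 12 than at 8 weeks. At 12 weeks 0 of these 7 lay above control for HFD-EPA/DHA and 2 for HFD-corn oil, and none was called. The part of either list in the Ppard difference was not tested. Single arrays decided both calls at 12 weeks. Without control replicate 2 or 3, or HFD-EPA/DHA replicate 1, 2 or 4, neither Ppard nor Nr1i3 was called, Nr1i3 was lost without control replicate 4 and Ppard without HFD-EPA/DHA replicate 3, while the difference of Ppard stayed between -0.98 and -0.67 and that of Nr1i3 between 0.97 and 1.28 over all arrays left out in turn.

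Ppara, the main switch of hepatic fatty acid oxidation, was not called on either HFD. It differed from control by -0.36 ± 0.18 on HFD-EPA/DHA at 8 weeks (95% confidence interval -0.73 to 0.00, adjusted p = 0.632, limma) and by 0.07 ± 0.18 at 12 weeks (interval -0.30 to 0.44). The values for HFD-corn oil were 0.02 ± 0.19 and 0.23 ± 0.18. The lowest Ppara signal of all, 10.49, was that of HFD-EPA/DHA replicate 2 at 8 weeks, and the other 3 mice of that group had 11.09, 11.59 and 11.17. This array stood apart in other ways. Lcn2, an acute phase gene, was 12.8 there and 7.84 to 9.93 on the other 22 arrays, the mean of the neutrophil markers was 7.05 there and at most 6.51 on the others, and its median correlation of 0.983 was the lowest of the 23. Without it the Ppara difference at 8 weeks was -0.16 ± 0.16 (adjusted p = 0.958, limma) and that of Ppard 0.02 ± 0.17, against 0.20 ± 0.18 with it, and Ppard was called with both HFDs and times pooled (-0.42 ± 0.10, adjusted p = 0.0229). Nr1i2, the pregnane X receptor, which shares many targets with Nr1i3, lay 0.16 and 0.22 above control in HFD-EPA/DHA mice at 8 and 12 weeks and 0.03 and 0.11 above it in HFD-corn oil mice, with overlap in each case and no call.

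**Figure D3:**
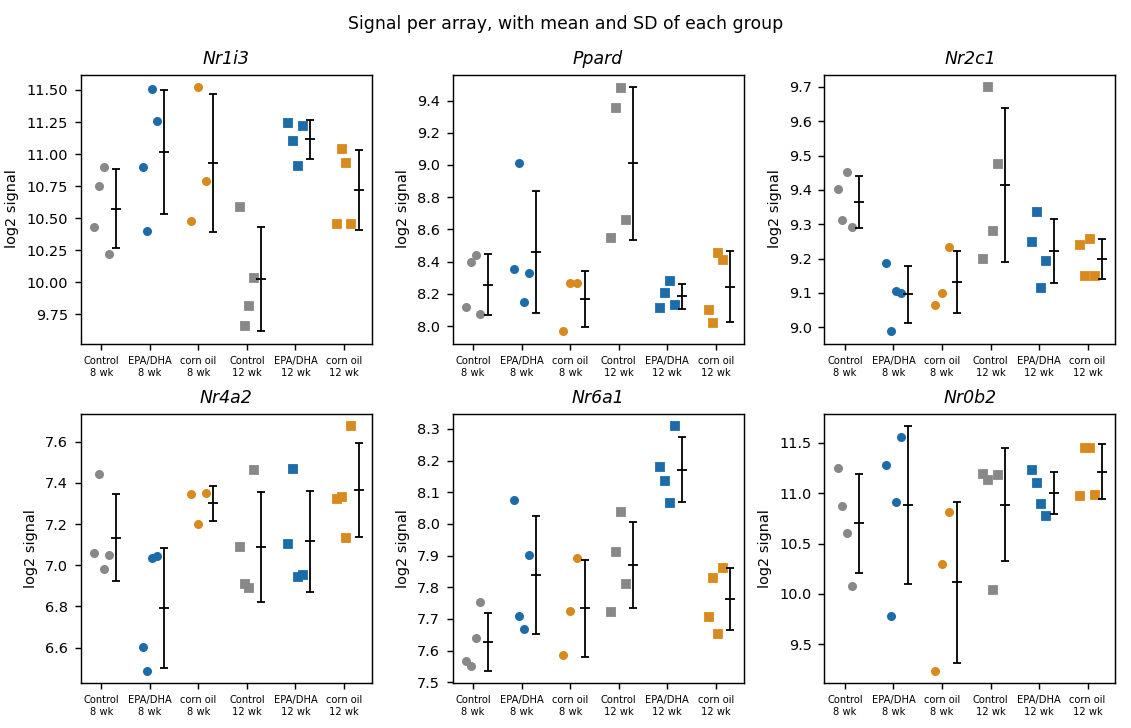
Log2 signal (vertical axis) of Nr1i3, Ppard, Nr2c1, Nr4a2, Nr6a1 and Nr0b2, 1 point per array in replicate order, with the mean and SD of each diet and time beside the points. Nr1i3 on HFD-EPA/DHA at 12 weeks lies wholly above control of that time, Ppard of control at 12 weeks lies above both HFDs of that time, and Nr0b2 spreads widely on both HFDs at 8 weeks.

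Genes known as targets of these sensors were counted beside them. On HFD-EPA/DHA at 12 weeks, where 0.617% of all probe sets were called, 4 of 15 measured targets of Nr1i3 and Nr1i2 rose. These were Cyp3a11 (0.89 ± 0.14) and Cyp2c29 (0.45 ± 0.08), which code for drug-oxidising P450 enzymes, the efflux pump gene Abcc3 (1.05 ± 0.15) and the esterase gene Ces2a (0.68 ± 0.09), with adjusted p of 0.000472 to 0.00362 (limma). Only Abcc3 passed on HFD-corn oil at 12 weeks (0.78 ± 0.15, adjusted p = 0.0222, limma), and none at 8 weeks. Between the HFDs none of the 15 was called at 8 weeks, at 12 weeks or with both times pooled. The smallest adjusted p between the HFDs was 0.687, 0.78 and 0.246 (limma), in that order. At 12 weeks the 15 genes had a median of 0.29 for HFD-EPA/DHA and of 0.12 for HFD-corn oil, where the median of all probe sets was -0.01 in both. Cyp3a11, Cyp2c29, Abcc3 and Ces2a were also those called with the HFDs and times pooled.

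Of 12 measured targets of Ppara, 4 rose and 1 fell on HFD-EPA/DHA at 12 weeks, where 0.617% of all probe sets were called. Ehhadh (0.76 ± 0.10), of peroxisomal β-oxidation, the thioesterase gene Acot1 (1.29 ± 0.16), Vnn1 (1.18 ± 0.21) and Acadm (0.40 ± 0.08), of mitochondrial β-oxidation, were higher, and the hormone gene Fgf21 (-1.19 ± 0.19) was lower. At 8 weeks Cyp4a14 (2.39 ± 0.53), a fatty acid hydroxylase gene, and Ehhadh rose and Fgf21 and Plin2 fell on HFD-EPA/DHA, and Ehhadh rose and Fgf21 fell on HFD-corn oil. None of the 12 passed on HFD-corn oil at 12 weeks. Between the HFDs none of them was called at 8 weeks, at 12 weeks or with both times pooled. The smallest adjusted p there was 0.559, 0.235 and 0.463 (limma), in that order. With both HFDs and times pooled against control 5 of the 12 rose and 1 fell, where 2.74% of all probe sets were called. At 12 weeks the 12 genes had a median of 0.14 for HFD-EPA/DHA and of 0.02 for HFD-corn oil, against -0.01 for all probe sets in both. Pparg, the relative of Ppara that drives lipid storage and was not among the 36 genes, rose on HFD-corn oil at 8 weeks (1.20 ± 0.21, adjusted p = 0.00727) and 12 weeks (1.01 ± 0.19, adjusted p = 0.0223, limma). Pparg was not called on HFD-EPA/DHA vs. control at either time. Between the HFDs it was not called at 8 weeks (adjusted p = 0.193), at 12 weeks or with both times pooled (adjusted p = 0.0925, limma). With both HFDs and times pooled against control it was called higher (adjusted p = 0.000328, limma). It was the 1 gene called among 9 further nuclear receptors measured.

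No sensor of sterols or bile acids was called between diets. Nr1h3, the gene of LXRα, which responds to oxysterols, differed from control by between -0.09 and 0.02 in the 4 comparisons of an HFD with control, with 95% confidence intervals that reached no further than -0.25 and 0.20. Nr1h4, the bile acid receptor FXR, differed by between -0.18 and 0.14, and Nr5a2 (LRH-1, an activator of bile acid synthesis) by between -0.14 and 0.05. Nr0b2 (SHP), a corepressor without a DNA-binding domain that FXR induces, had 9.24, 10.30 and 10.81 on HFD-corn oil at 8 weeks and 10.97, 11.45, 11.45 and 10.98 on the same diet at 12 weeks. These groups did not overlap, but the difference of 1.10 ± 0.36 did not pass over all probe sets (unadjusted p = 0.00579, adjusted p = 1, limma). Nr0b2 also varied within groups, for instance from 9.78 to 11.56 on HFD-EPA/DHA at 8 weeks.

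Of 12 targets of the LXRs, 2 were called at 8 weeks on HFD-EPA/DHA, where Abca1 rose and Pltp fell, and 3 on HFD-corn oil, where Abcg5 and Abcg8 rose and Pltp fell. At 12 weeks 2 rose on either HFD, the genes of the sterol exporters Abcg5 (0.76 ± 0.13 for HFD-EPA/DHA, 0.92 ± 0.13 for HFD-corn oil) and Abcg8 (0.94 ± 0.15 and 1.07 ± 0.15). With HFDs and times pooled 6 rose, adding the sterol transporters Abca1 and Abcg1, the lipogenic regulator Srebf1 and the lipase gene Lpl, and 1 fell, the phospholipid transfer protein gene Pltp (-0.94 ± 0.13). The median of the list was then 0.30, against -0.01 for all probe sets, of which 2.74% were called. None of 10 measured targets of FXR passed in the same comparison, where the smallest adjusted p was 0.0524 for the bile acid transporter Slc10a1. Between the HFDs none of the 12 LXR targets was called at either time or with both times pooled.

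Among the 6 retinoid receptors, of which the RARs bind retinoic acid and the RXRs are the common heterodimer partners, none was called. Rxra differed from control by between -0.08 and 0.13 in the 4 comparisons and Rara by between -0.16 and 0.14. Rarb and Rarg differed by between -0.16 and 0.08. Rxrb had the largest difference of the 6 between the HFDs over both times. Its mean was 8.61 ± 0.15 for HFD-EPA/DHA and 8.34 ± 0.11 for HFD-corn oil at 8 weeks (SD, n = 4 and n = 3), and over both times the difference was 0.22 ± 0.07 (adjusted p = 0.463, limma). Rxrg lay 0.38 ± 0.18 above control on HFD-corn oil at 8 weeks, with overlap and no call, and 0.05 above it at 12 weeks. None of 7 measured targets of the RARs was called in any comparison of diets.

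The receptors for steroid and thyroid hormones and vitamin D gave no call. Esr1, the oestrogen receptor α, had signals of 9.38, 9.79, 10.19 and 9.35 in control mice and of 9.28, 9.09, 9.02 and 9.04 in HFD-EPA/DHA mice at 12 weeks. The groups did not overlap, but the difference of -0.57 ± 0.18 did not pass (adjusted p = 0.207, limma). Thra, a thyroid hormone receptor gene, was lower than control in every HFD-corn oil mouse at 12 weeks (-0.22 ± 0.10, adjusted p = 0.571, limma), whereas Thrb, the main form in liver, differed by at most 0.10 in any comparison of an HFD with control. Nr3c1, the glucocorticoid receptor, lay between 0.05 and 0.13 above control in the 4 comparisons and its groups overlapped except on HFD-corn oil at 8 weeks. Nr3c2, the mineralocorticoid receptor, differed by between -0.14 and 0.20 and Vdr, the vitamin D receptor, near the array median, by between -0.02 and 0.10. None of 7 thyroid hormone targets was called, and of 12 glucocorticoid targets 1 was, the metallothionein gene Mt1, which rose on HFD-EPA/DHA at 8 weeks (1.14 ± 0.26, adjusted p = 0.0446, limma).

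Rora, which activates genes of the clock and of lipid metabolism through response elements it shares with the Rev-erb repressors, was lower than control in the mean of every HFD group. At 12 weeks the control mice had 11.14, 11.30, 11.22 and 11.25 and the HFD-corn oil mice 10.89, 11.06, 11.09 and 10.98, without overlap (-0.22 ± 0.08, adjusted p = 0.375, limma). Over both HFDs and times the difference of -0.17 ± 0.05 missed the threshold (adjusted p = 0.0585, limma), and passed it in 5 of the 8 alternative settings. The oestrogen-related receptors, orphan partners of PGC-1 in mitochondrial gene control, were not called. Esrrg lay 0.35 ± 0.13 above control on HFD-EPA/DHA at 12 weeks with overlap (adjusted p = 0.346, limma), Esrra differed from control by between -0.14 and 0.05, and Esrrb, below the array median, by between -0.07 and 0.14. Of 20 measured coregulators, Ppargc1a, the gene of PGC-1α, fell (-0.72 ± 0.18) and the corepressor deacetylase gene Hdac3 rose (0.22 ± 0.05) with both HFDs and times pooled, with adjusted p of 0.0219 and 0.00481 (limma). In that comparison 2.74% of all probe sets were called.

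Of the 8 receptors of the HNF4, COUP-TF and testicular families, Nr2c1 was called. At 8 weeks the control mice had 9.40, 9.31, 9.45 and 9.29, the HFD-EPA/DHA mice 9.19, 8.99, 9.11 and 9.10, and the HFD-corn oil mice 9.07, 9.10 and 9.23. Each HFD mouse was below each control mouse, by -0.27 ± 0.09 and -0.23 ± 0.10 in the mean, and neither passed alone (adjusted p = 0.287 and 0.493, limma). At 12 weeks the control mice had 9.20, 9.70, 9.28 and 9.48 and overlapped with HFD-EPA/DHA at 9.25, 9.34, 9.11 and 9.19 and with HFD-corn oil at 9.24, 9.15, 9.26 and 9.15. Both HFDs and times together gave -0.23 ± 0.06 (adjusted p = 0.0242, limma), about 1.17-fold lower. The call was lost without control replicate 1 or 3 of 8 weeks or control replicate 2 or 4 of 12 weeks (adjusted p from 0.05 to 0.0724, limma). The excluded HFD-corn oil array of 8 weeks had 9.71, above every other array, and with it in the fit the difference was -0.19 and no longer called (adjusted p = 0.298, limma).

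Nr6a1 (GCNF), a repressor best known from germ cells and embryos, had the smallest p of the receptors between the HFDs at 12 weeks. The HFD-EPA/DHA mice had 8.18, 8.13, 8.07 and 8.31 and the HFD-corn oil mice 7.70, 7.83, 7.65 and 7.86, without overlap. The difference of 0.41 ± 0.10 had an unadjusted p of 0.000312 and an adjusted p of 0.482 (limma), in a comparison where 0.00967% of all probe sets were called. At 8 weeks the same groups overlapped, at 8.08, 7.71, 7.67 and 7.90 against 7.59, 7.72 and 7.89, and over both times the difference was 0.26 ± 0.07 (adjusted p = 0.393, limma). Control mice had 7.57, 7.55, 7.64 and 7.75 at 8 weeks and 7.72, 7.91, 8.04 and 7.81 at 12 weeks. Hnf4a, the receptor that maintains hepatocyte identity, was between 12.28 and 12.42 on HFD-EPA/DHA and between 12.07 and 12.25 on HFD-corn oil at 12 weeks, a difference of 0.21 ± 0.08 (adjusted p = 1, limma), and Hnf4g differed the other way by -0.20 ± 0.09. None of 11 measured Hnf4a targets was called in any comparison of diets. Nr2f2 (COUP-TFII), a regulator of vessels and of glucose metabolism, was higher in every HFD-EPA/DHA mouse than in every control mouse at 12 weeks (0.31 ± 0.09, adjusted p = 0.191, limma), Nr2f1 and Nr2f6 differed from control by between -0.10 and 0.20, and Nr2c2 lay -0.24 ± 0.11 from control on HFD-corn oil at 8 weeks.

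The NR4A receptors are immediate early genes that respond to hormones and stress within a short time. Nr4a2 had the smallest p of the receptors between the HFDs at 8 weeks, where 0.0266% of all probe sets were called. Its signals were 6.60, 6.49, 7.03 and 7.04 in the HFD-EPA/DHA mice and 7.35, 7.20 and 7.35 in the HFD-corn oil mice, without overlap, and the difference of -0.51 ± 0.16 did not pass (unadjusted p = 0.00513, adjusted p = 0.663, limma). The HFD-EPA/DHA values lay below the array median, and the mean of Nr4a2 over the 23 arrays, 7.13, was close to it. Control mice at 8 weeks had 7.06, 7.44, 6.98 and 7.05. At 12 weeks the values were 7.09, 6.91, 6.89 and 7.46 in control, 7.10, 7.47, 6.94 and 6.95 in HFD-EPA/DHA mice and 7.32, 7.33, 7.13 and 7.68 in HFD-corn oil mice, and the 3 groups overlapped. Nr4a3, also below the array median, lay between 0.01 and 0.24 above control in the 4 comparisons, without overlap on HFD-EPA/DHA at 8 weeks (0.24 ± 0.10, adjusted p = 0.506, limma). Nr4a1 had the widest range of the 35 genes over the 23 arrays. Its SD was 0.41 to 0.87 in the 6 groups and its intervals reached from -1.36 to 1.21 in the comparisons with control. Of 13 other immediate early genes, 4 fell on HFD-corn oil at 8 weeks, Egr1 (-2.44 ± 0.40), Ier2, Btg2 and Zfp36, and none of the 3 NR4A genes was called in that comparison. There 0.738% of all probe sets were called. Ier2 was also higher on HFD-EPA/DHA than on HFD-corn oil at 8 weeks (adjusted p = 0.0278, limma). Btg2 was lower than control on HFD-EPA/DHA at 12 weeks (adjusted p = 0.0485, limma). Egr1 and Btg2 were lower with both HFDs and times pooled against control.

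**Figure D4:**
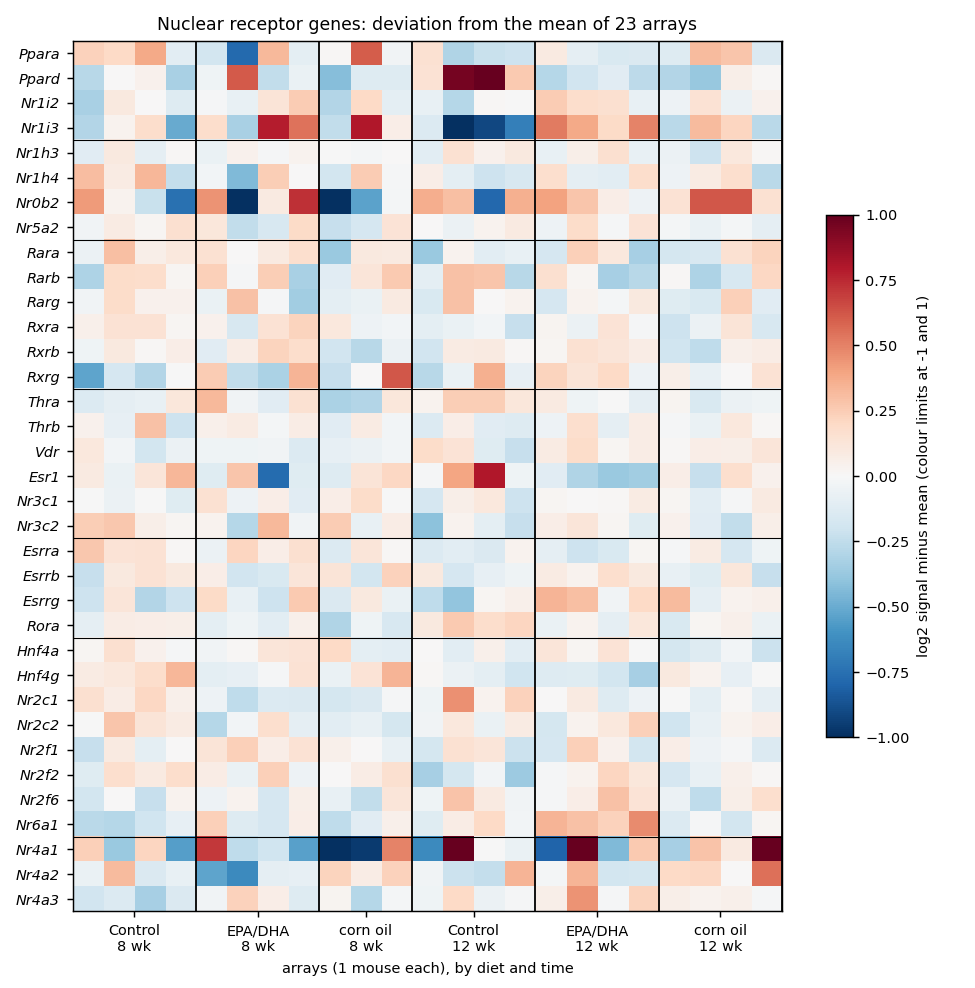
Deviation of each receptor gene (rows, grouped by role) from its own mean over 23 arrays (columns, grouped by diet and time), in log2 units with colours limited at -1 and 1. Control replicates 2 and 3 at 12 weeks have the lowest Nr1i3 and the highest Ppard of the 23 arrays, and Nr0b2 and Nr4a1 vary within groups.

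For the remaining comparisons no receptor passed, and the counts at an unadjusted p under 0.05 are given with the share of all probe sets for comparison. At 8 weeks these were 5 of 35 for HFD-EPA/DHA and 5 of 35 for HFD-corn oil vs. control, where 8.05% and 8.23% of all probe sets had such a p and 0.443% and 0.738% were called. For HFD-corn oil vs. control at 12 weeks it was 5 of 35, with 8.53% of all probe sets at such a p and 0.179% called. Between the HFDs it was 4 of 35 (11.4%) at 8 weeks, 3 of 35 (8.57%) at 12 weeks and 6 of 35 (17.1%) with both times pooled, against 6.92%, 4.63% and 7.21% of all probe sets at such a p. In the last of these 0.0653% of all probe sets were called. From 8 to 12 weeks it was 9 of 35 (25.7%) in control mice, where 6.89% of all probe sets had such a p and 0.00967% were called. It was 3 of 35 (8.57%) in HFD-EPA/DHA and 1 of 35 (2.86%) in HFD-corn oil mice, close to the 5.49% and 3.32% of all probe sets, with 0% called in both. The interaction terms of time with each diet comparison (HFD-EPA/DHA or HFD-corn oil against control, then the HFDs against each other) had 3, 1 and 1 such receptors (8.57%, 2.86% and 2.86%), against 4.95%, 3.64% and 4.46% of all probe sets, and 0% of all probe sets were called. The median absolute difference of the receptors was 0.12 for HFD-EPA/DHA vs. control at 12 weeks, against 0.08 for all probe sets, and 0.06 for both HFDs and times together, against 0.06.

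The mice also differed in the state of the liver clock, and some of the receptors moved with it. Dbp and Arntl (Bmal1) are clock genes whose transcripts cycle in opposite phase, and log2 Dbp minus log2 Arntl was taken as a clock score for each array, a measure chosen after the values had been seen. The score ran from -3.52 to -1.54 in control mice at 12 weeks and from 0.69 to 3.15 in control mice at 8 weeks, without overlap. It was -2.03 to 0.10 in HFD-EPA/DHA and -1.80 to 1.32 in HFD-corn oil mice at 12 weeks, and -3.71 to 3.27 and -0.34 to 3.27 at 8 weeks. None of 14 measured clock genes was called in any comparison of diets.

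In a fit with 1 mean per group and the score as a further term, the slope on the score was called for 4 of 35 receptors, against 1.06% of all probe sets. The signal rose with the score for Ppara (slope 0.16 ± 0.02 per log2 unit of the score, adjusted p = 2.95e-05, limma), Nr1i3 (0.19 ± 0.03, adjusted p = 0.00126) and Nr1h4 (0.10 ± 0.02, adjusted p = 0.0222), and fell with it for Esr1 (-0.12 ± 0.03, adjusted p = 0.0364). The slope of Ppard was -0.09 ± 0.03 (adjusted p = 0.203, limma) and that of Nr2c1 was 0.00 ± 0.02 (adjusted p = 0.998). In the 11 arrays of 8 weeks alone Ppara was called (adjusted p = 0.00974, against 0.213% of all probe sets) and in the 12 arrays of 12 weeks none was (0.0339% of all probe sets), with slopes of 0.16 and 0.15 for Ppara, 0.18 and 0.22 for Nr1i3, 0.10 and 0.08 for Nr1h4, and -0.12 and -0.11 for Esr1. Without the 2 arrays farthest from the median score, Ppara (adjusted p = 0.00996) and Nr1i3 (adjusted p = 0.0365, limma) were called, against 0.249% of all probe sets. The same 2 receptors were called without HFD-EPA/DHA replicate 2 of 8 weeks, the array with the lowest score, with slopes of 0.15 for Ppara (adjusted p = 0.0016) and 0.19 for Nr1i3 (adjusted p = 0.0162, limma), against 0.554% of all probe sets, and those of Nr1h4 (0.09) and Esr1 (-0.11) were not. The E-box shown above for Nr1i3 was not found in these windows of Ppara and Nr1h4, and a link between motif and slope was not tested.

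The mean score at 12 weeks was -2.55 in control, -1.11 in HFD-EPA/DHA and -0.28 in HFD-corn oil mice. Diet and score thus cannot be fully told apart, and a fit with the score may take out part of a diet difference. With the score in the fit, Nr1i3 on HFD-EPA/DHA at 12 weeks was 0.82 ± 0.15 above control (adjusted p = 0.00612, limma), and 0.64 ± 0.09 with both HFDs and times together (adjusted p = 8.4e-05). On HFD-corn oil at 12 weeks its difference from control was 0.27 ± 0.16, against 0.70 without the score. Ppard on HFD-EPA/DHA at 12 weeks was -0.69 ± 0.17 from control and was no longer called (adjusted p = 0.0622, limma). The highest Ppard signals, in control replicates 2 and 3 at 12 weeks and HFD-EPA/DHA replicate 2 at 8 weeks, came from the 3 arrays with the lowest scores, -3.52, -3.30 and -3.71. Without the last of these arrays the slope of Ppard on the score was -0.06 ± 0.04 (adjusted p = 0.525, limma). The difference of Nr2c1 with both HFDs and times together stayed at -0.23 ± 0.06 (adjusted p = 0.026, limma).

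**Figure D5:**
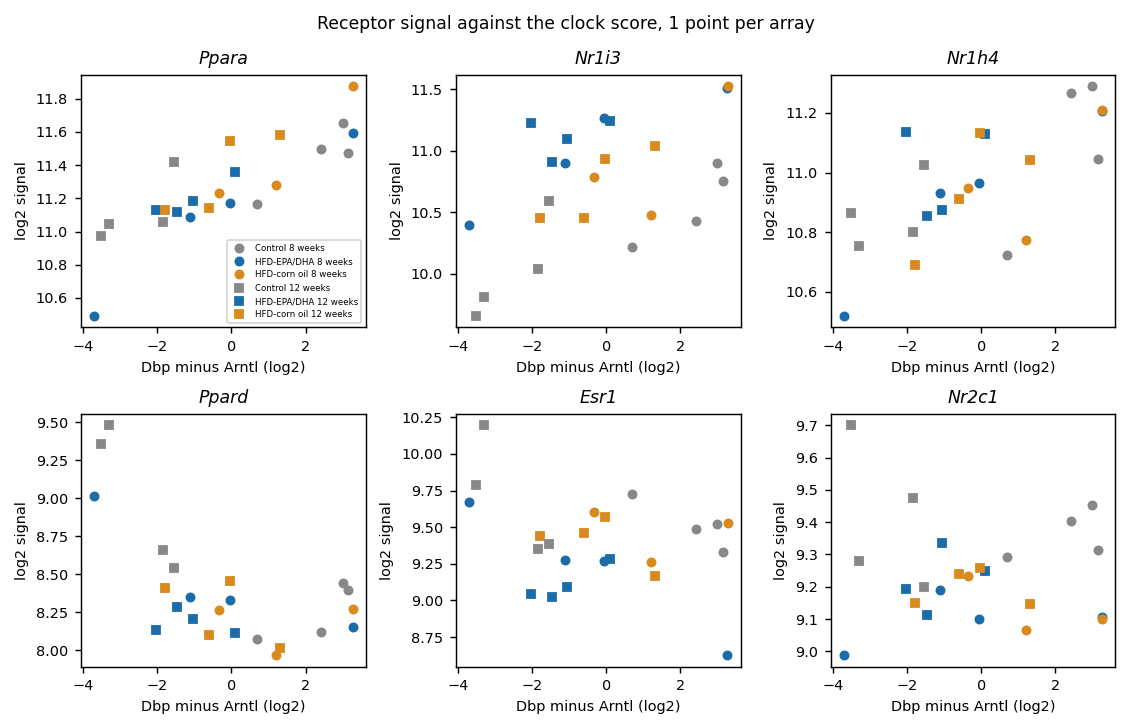
Log2 signal (vertical axes) of 6 receptor genes against the clock score, log2 Dbp minus log2 Arntl (horizontal axes), 1 point per array, coloured by diet and shaped by time. Ppara, Nr1i3 and Nr1h4 are higher at high scores and Esr1 lower, the 3 arrays with scores below -3 have the highest Ppard signals, and Nr2c1 has a fitted slope of 0.00.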

How the data were processed

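Transcript levels came from 24 livers, each on its own GeneChip Mouse Gene 2.0 ST array. Per probe set and array the deposited table gives a single value, which the authors made with Expression Console (iterative PLIER, quantile normalization, perfect match probes only). The deposited values, from 4.39 to 13.9, were read as log2, a scale the table does not name. No further normalization or filter was applied. Of 41345 probe sets, 23521 had 1 gene symbol in the platform annotation, 1820 several and 16004 none. The number of arrays limits the precision.

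One fit of 6 group means on 23 arrays was made with limma 3.58.1 in R 4.3.3 (lmFit, contrasts.fit, eBayes), for 14 comparisons, two-sided, with Benjamini-Hochberg adjustment over all probe sets. The fit was tested on simulated data. An error after ± is a standard error unless SD is given. Figures were drawn with matplotlib 3.10.9. The p-values measure the spread between mice within each study.

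The receptors, target lists and tests were chosen with earlier results of these data known. Receptors called in any comparison, and the one with the smallest p in each comparison of diets, are given in full, the others by role, with further values chosen after they were seen. Genes of a list are named where they passed, or else by the smallest p. The clock score, the fits without HFD-EPA/DHA replicate 2 of 8 weeks and the printing of Ppara and Nr1h4 promoters were also chosen after values were seen. Alternatives were all 24 arrays, trend and robust settings, only the groups compared, a replicate block, a second quantile normalization, probe sets above the median, averaging the probe sets of a gene, each array left out, and the clock score as a term.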

Additional observations from a re-analysis of the deposited data

Results flagged for a closer look

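Within groups of 4 mice, 7 single arrays stood far from the other 3 for a receptor, among 175 combinations of gene and group looked at, where chance gives 1 in 20, or 8.75. Low values were Nr0b2 in control replicate 3 at 12 weeks (10.04, the other mice from 11.13), Vdr in HFD-EPA/DHA replicate 4 at 8 weeks (6.97), Esrrb in control replicate 1 at 8 weeks (6.78) and Rora in the same mouse (10.95). High values were Rarg in HFD-corn oil replicate 3 at 12 weeks (7.62), Thrb in control replicate 2 at 12 weeks (10.03) and Nr4a2 in control replicate 2 at 8 weeks (7.445).

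In the array left out of the tests, HFD-corn oil replicate 3 at 8 weeks, 9 of the 35 receptors had a signal above all 23 other arrays, 8 a signal below them all and 18 lay within their range. Over all probe sets 20.7% lay above, 18.9% below and 60.4% within. The 9 receptors above were Nr1h3 (10.96), Rara (8.91), Rarg (7.76), Rxra (11.34), Rxrb (8.87), Vdr (7.34), Nr3c2 (9.88), Nr2c1 (9.71) and Nr2f6 (9.94). The 8 below were Nr1i2 (10.52), Nr1h4 (10.29), Nr5a2 (9.93), Thrb (9.30), Nr3c1 (9.58), Esrra (7.84), Rora (10.22) and Nr6a1 (7.54).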

How the results depend on the processing

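No difference of a receptor given in full turned its sign under any alternative run. For HFD-EPA/DHA vs. control at 12 weeks the count fell from 2 to 1 with all 24 arrays (Nr1i3 lost, adjusted p = 0.0526), with trend and robust settings (Nr1i3 lost, 0.0674), with only the compared groups in the fit (Ppard lost, 0.0722) and with the clock score (Ppard lost, 0.0622). With both HFDs and times together it fell to 1 with all 24 arrays, where Nr2c1 had an adjusted p of 0.298. In that comparison the count rose to 3 with Rora under trend and robust settings, a replicate block, a second quantile normalization, probe sets above the median or averaged probe sets, and with Ppard under the clock score. With the clock score it rose from 0 to 1 (Nr1i3) for HFD-EPA/DHA vs. control at 8 weeks. Leaving out each array in turn, the count ranged from 0 to 2 for HFD-EPA/DHA vs. control at 12 weeks, 0 to 1 for HFD-corn oil vs. control at 12 weeks and 1 to 3 for both HFDs together (3 with Ppard without HFD-EPA/DHA replicate 2 of 8 weeks or control replicate 1 of 12 weeks, and with Rora without HFD-EPA/DHA replicate 4 of either time or HFD-corn oil replicate 2 of 8 weeks), and was 0 in the other comparisons. At 12 weeks none was called on HFD-EPA/DHA without control replicate 2 or 3 or HFD-EPA/DHA replicate 1, 2 or 4. Ppard alone was called without control replicate 4 and Nr1i3 alone without HFD-EPA/DHA replicate 3. On HFD-corn oil at 12 weeks Ppard was called without HFD-EPA/DHA replicate 2 of 8 weeks or control replicate 1 of 12 weeks. Nr1i3 alone stayed called with both HFDs together without control replicate 3 at 8 weeks or control replicates 2 or 4 at 12 weeks. Over these fits Nr1i3 on HFD-EPA/DHA at 12 weeks ranged from 0.97 to 1.28 and was called in 17 of 23, and Ppard from -0.98 to -0.67, called in 17 of 23. The labels give every group the same replicate numbers, and the 55 pairs of arrays with the same number had deviations correlated between -0.31 and 0.26. Pairs with different numbers were not set beside them, so this range cannot tell whether the numbers pair the mice. With a replicate block the count for HFD-EPA/DHA at 12 weeks stayed 2 (Nr1i3 adjusted p = 0.0401, Ppard 0.0171), and besides the gain of Rora it changed no call of a receptor. Signals close to the array median, such as those of Nr4a2, Nr4a3, Vdr and Esrrb, limit what can be seen for these genes.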
